A study of Mus musculus with 51 samples.

Results

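In male germ cells of (B6xCAST) F1 hybrid mice every autosome is present as one copy from C57BL/6J (B6) and one from CAST, in the same nucleus and with the same proteins around both. The H3K9ac library of these cells was read allele by allele over the 80892 regions of the F1 table. Members were the autosomal regions with 20 or more H3K9ac counts over both alleles, 51261 of the 78667 autosomal regions. Their measure was the B6 share, the B6 counts as a percent of B6 plus CAST counts, and it was set beside the ATAC shares of the same regions.

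H3K9ac came from 1 F1 library and ATAC-seq, which marks open DNA by insertion of a transposase, from 2 F1 libraries, all of enriched male germ cells of (B6xCAST) F1 mice aged 12 to 14 days post-partum. Set beside them were germ cells of the same age from B6-Prdm9CAST-KI mice (KI; a B6 strain whose name gives it the CAST form of Prdm9; 2 ATAC and 2 H3K9ac libraries) and C57BL/6J mice (B6; 2 ATAC and 3 H3K9ac libraries). The H3K9ac fit also held 1 Spo11/Spo11 H3K9ac library of that age, as a group of its own, which gives no estimate of spread. Positions came from HELLS peaks of KI testis (12 to 14 days), from DMC1 peaks of Hells het testis (6 weeks; its Prdm9 form is not given in the labels) and from 11 chromatin states of B6 cells. No label says that the 2 F1 ATAC libraries came from separate animals, so their spread may be technical.

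PRDM9 is a methyltransferase whose zinc fingers bind DNA and so choose where meiotic recombination starts; its CAST and B6 forms have different fingers and recognise different sequences. HELLS is a chromatin remodeller that opens the sites PRDM9 binds, DMC1 coats the DNA ends left by the breaks made there, and H3K9ac is an acetyl mark of open, active chromatin. An F1 cell makes both forms of PRDM9, so each form meets a B6 and a CAST copy of each site.

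The H3K9ac library held 6497850 allele counts and the ATAC libraries 9800791 and 8807500. A balanced member with 20 counts has an exact 95% binomial (Clopper-Pearson) interval of 27.2% to 72.8%, and with the median 58 counts one of 36.6% to 63.4%; no molecular identifiers are recorded, so intervals cover counting error only, and a single H3K9ac library allows no test. Males carry 1 X chromosome, and 97.8% of the H3K9ac counts on X were B6, with 2.16% CAST (6.39% and 6.72% in the ATAC libraries). A male's X comes from its mother, so CAST alleles are called paternal below. With all F1 libraries from that direction of the cross, strain and parent of origin cannot be told apart. Promoters of Sertoli cell markers held H3K9ac counts (7 of 8 genes had a member promoter, with 274 to 1015 counts each), as did those of meiotic prophase genes (27 of 29, with 93 to 967), while 0 of 4 blood and macrophage and 1 of 6 Leydig cell promoters were members. The part of somatic cells in the results was not tested.

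Most members were near balance. The median B6 share was 50.9% (quartiles 44.4% and 57.6%), and the medians of the 19 autosomes ran from 50.6% to 51.5%. A region was called B6-high at a share of 80% or more and CAST-high at 20% or less, a 4-fold ratio. B6-high regions numbered 2203, which is 4.3% of members, and CAST-high regions 2212, which is 4.32%. The interval lay above 50% in 7629 members and below it in 5663. In 43 members all counts were B6 and in 27 all were CAST. Just above the minimum, at 20 to 24 counts, the median share was 50% and 5.36% and 5.64% were B6-high and CAST-high; just below it, at 15 to 19 counts, the median was also 50% and the calls came to 6.98% and 6.44%.

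The calls were unevenly spread over 4 classes of region, taken in a fixed order and without F1 data. Promoters lie within 1000 bp of an annotated transcription start (19089 members). KI-opened sites are distal regions that overlap an ATAC region higher in KI than in B6 (4293). They were found in mice without CAST chromosomes, so sites open on the CAST copy alone would be missed. DMC1 hotspots are other distal regions that overlap a Hells het DMC1 peak (2523). The remaining 25356 are other distal regions. For orientation, the edgeR test behind the KI-opened sites called 7.14% of all ATAC regions higher in KI and 2.27% lower.

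**Figure D1:**
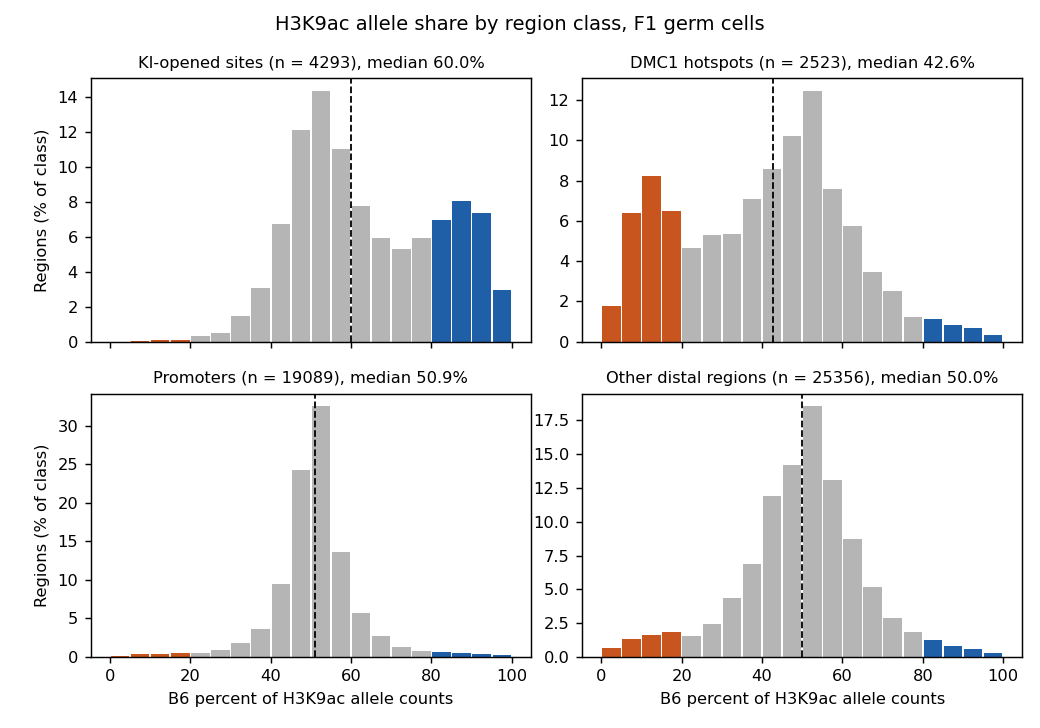
B6 percent of H3K9ac allele counts (x axis, bars of 5 points) against the percent of regions in each class (y axis). Blue bars are B6-high, orange bars CAST-high, the dashed line is the class median. KI-opened sites have a second hump above 80% and DMC1 hotspots one below 20%, while promoters gather at 50.9%.

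KI-opened sites leaned to the B6 allele. Their median H3K9ac share was 60.0% (quartiles 50% and 80%), against 50.9% over all members. B6-high were 1087 of them (25.3%, against 4.3% of all members) and CAST-high only 8 (0.186%, against 4.32%). DMC1 hotspots leaned the other way, with a median of 42.6% (quartiles 22.2% and 54.3%), 76 B6-high (3.01%) and 577 CAST-high regions (22.9%). Promoters were tight around balance, with a median of 50.9%, 298 B6-high (1.56%) and 252 CAST-high regions (1.32%). Other distal regions had a median of 50%, with 742 B6-high (2.93%) and 1375 CAST-high (5.42%).

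The windows below show the sequence under these classes, each 300 bases about the centre of a region, from the mm10 reference on the plus strand, and so the B6 sequence alone. The Lhx2 and Megf11 windows lead the B6-high KI-opened sites and the CAST-high hotspots, the Slc44a1 and Mcfd2 windows are the highest-ranked such regions that hold the words described next within the printed 300 bases, and the Gm33206 window is the second-ranked hotspot. Capitals mark those words on either strand; the Lhx2, Megf11 and Gm33206 windows hold neither. In the Slc44a1 window the word lies outside the central 200 bp in which words were counted.
Lhx2, chr2:38409489-38409788: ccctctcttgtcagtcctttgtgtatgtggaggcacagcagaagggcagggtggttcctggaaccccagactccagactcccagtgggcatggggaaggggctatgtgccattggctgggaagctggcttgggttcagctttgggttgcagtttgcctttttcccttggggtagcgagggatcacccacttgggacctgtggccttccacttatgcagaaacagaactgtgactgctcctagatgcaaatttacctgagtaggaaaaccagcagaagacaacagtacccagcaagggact
Slc44a1, chr4:53362796-53363095: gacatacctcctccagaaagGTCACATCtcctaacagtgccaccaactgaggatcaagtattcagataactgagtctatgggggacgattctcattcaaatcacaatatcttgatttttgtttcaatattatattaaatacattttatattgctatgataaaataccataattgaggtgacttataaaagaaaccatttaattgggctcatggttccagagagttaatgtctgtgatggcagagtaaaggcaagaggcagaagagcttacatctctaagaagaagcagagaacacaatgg
Megf11, chr9:64564289-64564588: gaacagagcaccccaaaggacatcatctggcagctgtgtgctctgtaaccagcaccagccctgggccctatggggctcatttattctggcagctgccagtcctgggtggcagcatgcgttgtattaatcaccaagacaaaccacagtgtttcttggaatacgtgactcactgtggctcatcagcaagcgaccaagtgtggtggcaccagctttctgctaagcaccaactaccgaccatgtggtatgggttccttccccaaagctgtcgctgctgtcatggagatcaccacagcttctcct
Mcfd2, chr17:87221070-87221369: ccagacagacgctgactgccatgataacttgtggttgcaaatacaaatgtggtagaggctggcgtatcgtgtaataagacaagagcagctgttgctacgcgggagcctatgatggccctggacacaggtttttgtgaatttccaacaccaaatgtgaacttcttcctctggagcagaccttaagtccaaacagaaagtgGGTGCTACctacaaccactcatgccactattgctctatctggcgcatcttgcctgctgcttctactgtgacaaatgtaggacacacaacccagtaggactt
Gm33206, chr3:29843816-29844115: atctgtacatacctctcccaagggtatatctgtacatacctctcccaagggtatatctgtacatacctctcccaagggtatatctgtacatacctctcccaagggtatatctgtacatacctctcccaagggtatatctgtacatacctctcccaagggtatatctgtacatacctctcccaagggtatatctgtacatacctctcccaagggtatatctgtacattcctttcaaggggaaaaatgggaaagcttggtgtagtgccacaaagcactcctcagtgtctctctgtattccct

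The words came from ATAC regions of the KI and B6 mice, and the hotspot word also from the Hells het DMC1 peaks. No F1 counts were used to pick them. In the central 200 bp of distal ATAC regions, GATGTGAC (or its reverse complement GTCACATC) was in 191 of 5223 regions higher in KI (3.66%) and in 275 of 51404 other distal regions (0.535%). GGTGCTAC (or GTAGCACC) was in 63 of 1569 DMC1 regions lower in KI (4.02%) and in 205 of the same 51404 regions (0.399%). No word of 8 letters reached 10% of either set, so words in 3% or more were ranked by that ratio, a limit chosen after seeing the data. The KI-opened and hotspot classes overlap the regions the words were picked from, so the shares in these classes are a description of that choice. In the F1 members, GATGTGAC was in 3.28% of KI-opened sites, 0.912% of DMC1 hotspots and 0.979% of all members; it was in 2.72% of all B6-high members (60, of which 38 were KI-opened sites) and in 0.769% of all CAST-high members. GGTGCTAC was in 2.5% of DMC1 hotspots, 0.303% of KI-opened sites and 0.453% of all members. It was in 0.454% of B6-high and 1.4% of CAST-high members (31, of which 16 were DMC1 hotspots). Within KI-opened sites, GATGTGAC was in 38 of 1087 B6-high regions (3.50%) and in 103 of 3198 past neither limit (3.22%). Within DMC1 hotspots, GGTGCTAC was in 3 of 76 B6-high regions (3.95%) and 16 of 577 CAST-high ones (2.77%). It was in 44 of 1870 hotspots past neither limit (2.35%). These are letter matches, not bound sites. Of the 293 overlapping 8-letter words in each window, 289 were distinct in the Lhx2 window, 293 in Slc44a1, 287 in Megf11 and 291 in Mcfd2, but 101 in Gm33206, whose window is in large part a tandem repeat.

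The leading KI-opened sites were almost wholly B6 in H3K9ac. The site nearest Lhx2, a LIM homeobox transcription factor gene (chr2:38408036-38411241, intergenic), had 218 B6 and 4 CAST counts, a share of 98.2% (95.5% to 99.5%). Its ATAC counts were 157 B6 and 25 CAST in library 1 and 184 and 20 in library 2. By H3K9ac the site nearest Dsel (chr1:113317300-113320532, intergenic) came next, with 232 B6 and 5 CAST counts, 97.9% (95.2% to 99.3%). Inside an intron of Neo1, the receptor neogenin (chr9:59027800-59030498), there were 137 B6 and 2 CAST counts, 98.6% (94.9% to 99.8%). All 3 sites were also higher on B6 in the ATAC allele test, by log2 ratios of 2.91 ± 0.23, 2.13 ± 0.22 and 2.57 ± 0.28 (SE; edgeR adjusted p = 2.2e-08, 7.17e-07 and 1.63e-06). At the same 3 sites H3K9ac was higher in KI than in B6 mice, by 6.01, 5.84 and 3.63 on the log2 scale (edgeR adjusted p = 0.0168, 0.0193 and 0.00506). At the Lhx2 site the levels were 48 and 53.4 CPM (counts scaled to library size) in the 2 KI libraries and 0.258, 2.27 and 0.228 CPM in the 3 B6 libraries, with no overlap.

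The Slc44a1 site of the sequence above, which was chosen for holding the word (chr4:53362097-53363794, intergenic), had 81 B6 and 1 CAST H3K9ac counts, 98.8% (93.4% to 100%). In ATAC it had 52 B6 and 11 CAST counts in library 1 and 41 and 18 in library 2, again a smaller lean (edgeR adjusted p = 0.00353).

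Of the 8 CAST-high KI-opened sites, the leading one lies in an intron of Gbe1, the glycogen branching enzyme gene (chr16:70479187-70481464). It had 43 B6 and 353 CAST counts in H3K9ac, 10.9% (7.97% to 14.4%). ATAC gave nearly the same share, with 207 B6 and 1685 CAST counts in library 1 and 196 and 1662 in library 2. The site nearest Tle3, a transcriptional corepressor gene, had 13 B6 and 95 CAST counts, 12.0% (6.57% to 19.7%), and the one nearest Gabrg1, a GABA receptor subunit gene, 4 and 41, 8.89% (2.48% to 21.2%). All 3 were higher on CAST in ATAC (edgeR adjusted p = 1.07e-15, 1.19e-10 and 0.0117), Gabrg1 not by DESeq2 (adjusted p = 0.252). In the mice without a CAST chromosome, H3K9ac at the Gbe1 site was 13.9 and 14 CPM in KI and 0.419, 2.39 and 0.718 CPM in B6. That is a log2 fold change of 3.66 (edgeR adjusted p = 0.0278). The class rule, ATAC higher in KI than in B6, had already selected this site.

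Among KI-opened sites, those with a HELLS peak in KI testis leaned further. The 1068 sites with a peak had a median share of 73.7% and 39.8% were B6-high; the 3225 without one had a median of 57.5% and 20.5% were B6-high. Their depth differed too, with medians of 140 counts with a peak and 69 without; what depth contributes was not tested. The ATAC medians were 67.1% with a peak and 55.3% without. Over all sites of the class, the B6-high ones overlapped a HELLS peak in 39.1% of cases and those past neither limit in 20.1%.

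KI-opened sites carried H3K9ac in KI mice and little in B6 mice. At the 1087 B6-high KI-opened sites, the median level was 25.7 and 29 CPM in the 2 KI libraries and 0.581, 2.46 and 0.652 CPM in the 3 B6 libraries, where B6 replicate 2 stood above the other B6 libraries. At the 3198 sites past neither limit it was 19.3 and 21.6 CPM in KI and 0.645, 2.39 and 0.750 CPM in B6. The KI-opened class as a whole was chosen on ATAC of the KI and B6 mice; H3K9ac was higher in KI at 3965 of the 4288 that overlap a region of the H3K9ac table (edgeR adjusted p under 0.05), against 12.1% higher and 0.208% lower over all 91909 H3K9ac regions tested. That call rests on both KI libraries, since without either one 0 regions passed, with 13704 and 12613 at an unadjusted p under 0.05. The counts of regions higher and lower in KI also moved without a B6 library, to 7029 and 46 without replicate 1, 26360 and 24586 without replicate 2, and 1987 and 0 without replicate 3. With all libraries DESeq2 gave 13952 and 1552.

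At DMC1 hotspots the leading regions were CAST. In an intron of Megf11 (chr9:64563360-64565517), a gene of the MEGF family of cell surface proteins, H3K9ac had 6 B6 and 218 CAST counts, 2.68% (0.99% to 5.74%). ATAC there had 16 B6 and 150 CAST counts in library 1 and 20 and 131 in library 2. The Gm33206 region (chr3:29842725-29845206, intronic) had 0 B6 and 61 CAST counts, a share of 0% with an upper bound of 5.87%. The Dab1 region (chr4:104642756-104645547), in an intron of the gene of an adaptor in reelin signalling, had 2 B6 and 110 CAST counts, 1.79% (0.22% to 6.30%). All 3 were higher on CAST in ATAC, by log2 ratios of -2.95 ± 0.25, -2.24 ± 0.23 and -2.29 ± 0.24 (SE; edgeR adjusted p = 7.55e-08, 8.81e-07 and 1.02e-06). None of the 3 overlapped a region of the ATAC table made from KI and B6 mice.

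The Mcfd2 hotspot of the sequence above (chr17:87220097-87222341, intergenic), again chosen for its word, had 7 B6 and 157 CAST counts in H3K9ac, 4.27% (1.73% to 8.60%). ATAC had 35 B6 and 278 CAST counts in library 1 and 27 and 232 in library 2 (edgeR adjusted p = 4.67e-10). Both readouts leaned to CAST, H3K9ac by more.

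The 76 B6-high hotspots were led by the region nearest Nedd1, a gene of the gamma-tubulin machinery (chr10:92679601-92682189, intergenic), with 134 B6 and 4 CAST counts, 97.1% (92.7% to 99.2%). The region nearest Prlhr (chr19:60479084-60481518) had 58 and 1, 98.3% (90.9% to 100%), and the exonic region of Cdkl2 (chr5:92023383-92025493) 47 and 1, 97.9% (88.9% to 100%). In KI mice ATAC at these 3 was lower than in B6, by log2 fold changes of -2.61, -3.66 and -2.53 (edgeR adjusted p = 3.84e-05, 7.45e-07 and 3.64e-05). At Prlhr the ATAC levels were 2.51 and 3.3 CPM in KI and 45.8 and 28.2 CPM in B6. In the F1, Prlhr had 216 B6 and 11 CAST ATAC counts in library 1 and 157 and 18 in library 2, and both readouts leaned to the B6 allele.

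The CAST lean was uneven among hotspots. Of the 2523, 1027 overlapped no region of the KI and B6 ATAC table. Their median F1 share was 23.6%, and 458 (44.6%) were CAST-high. That table was made without CAST chromosomes, so regions absent from it could become members mainly through the CAST allele. The split is therefore not independent of the share. The 773 with ATAC lower in KI than in B6 had a median of 48.6%, with 48 B6-high (6.21%) and 63 CAST-high (8.15%). The other 723 had a median of 48.8%, with 10 B6-high and 56 CAST-high. H3K9ac of the hotspots as a class had median levels of 2.27 and 2.54 CPM in KI mice. They were 3.42, 11.8 and 3.39 CPM in B6 mice and 7.57 CPM in the Spo11/Spo11 library. Replicate 2 was again the highest B6 library, and the Spo11/Spo11 library lay between it and the other B6 libraries.

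**Figure D2:**
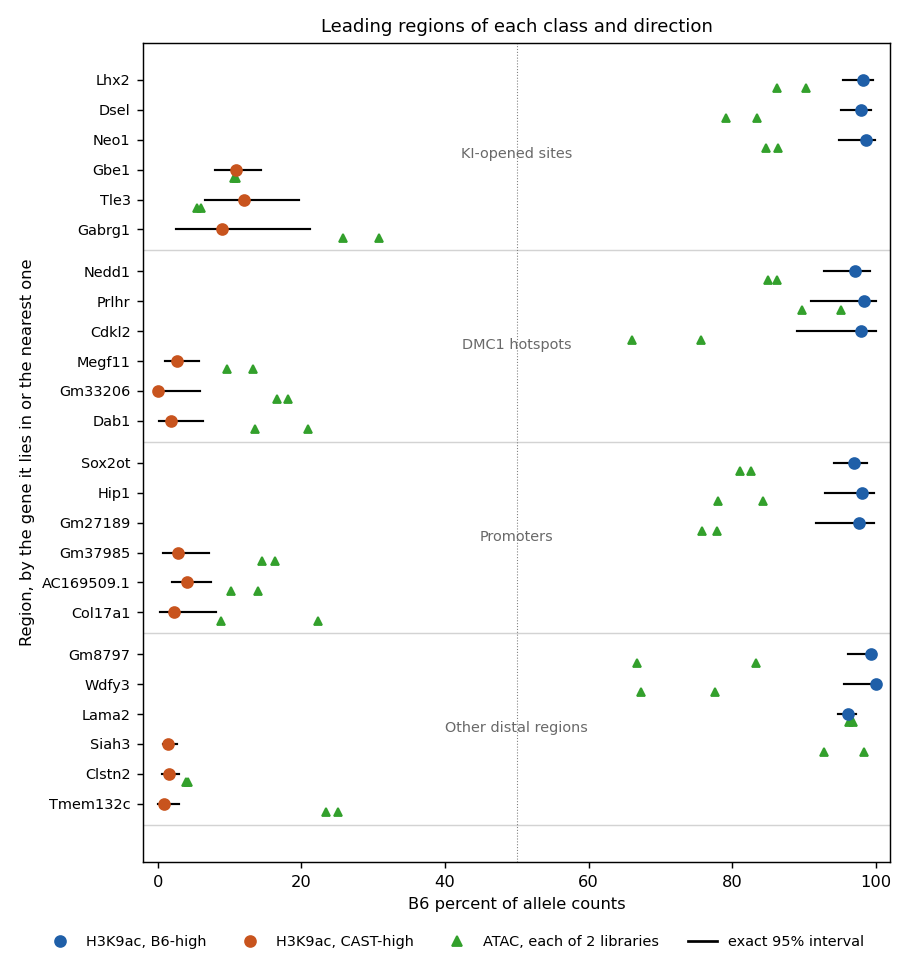
B6 percent of allele counts (x axis) in the 3 leading regions of each class and direction (y axis, by gene). Circles are H3K9ac with exact 95% intervals, triangles the 2 ATAC libraries. ATAC lies on the H3K9ac side of 50% in every region shown except Siah3, and mostly nearer to 50%.

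Promoters at either extreme were few. Sox2ot, a long noncoding RNA gene that spans Sox2, had a promoter region with 258 B6 and 8 CAST H3K9ac counts (chr3:34586258-34589524), 97.0% (94.2% to 98.7%). ATAC there had 286 B6 and 60 CAST counts in library 1 and 223 and 52 in library 2. A promoter of Hip1, the gene of a clathrin adaptor, had 98 and 2 counts, 98.0% (93.0% to 99.8%), and Gm27189 82 and 2, 97.6% (91.7% to 99.7%). Toward CAST, the promoter region of Gm37985 had 4 B6 and 137 CAST counts, 2.84% (0.78% to 7.10%), that of AC169509.1 10 and 232, 4.13% (2.00% to 7.47%), and that of Col17a1, a collagen of hemidesmosomes, 2 and 84, 2.33% (0.28% to 8.15%). Each of the 6 was also past the ATAC allele test in its H3K9ac direction, with edgeR adjusted p between 7.88e-10 and 3.72e-05.

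Promoters that overlapped KI-opened regions leaned to B6 more often than the rest. The 632 promoters that overlapped an ATAC region higher in KI had a median share of 58.6%; 141 (22.3%) were B6-high and 1 was CAST-high. Of the 1036 with a DMC1 peak, 16 (1.54%) were B6-high and 67 (6.47%) CAST-high, around a median of 50.2%. The 17451 with neither had 149 B6-high (0.854%) and 184 CAST-high (1.05%). Sox2ot and Gm27189 are KI-opened promoters, with H3K9ac higher in KI than in B6 mice by 5.46 and 4.78 on the log2 scale (edgeR adjusted p = 0.0142 and 0.0283); Hip1 is not, with -0.37 (adjusted p = 0.343).

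Promoters of genes that germ cells use lay near balance, like promoters in general. Of the 29 meiotic prophase genes, 27 had a member promoter, with a median share of 52.4% (range 44.1% to 57.6%), with 0 called in either direction and 3 intervals that left out 50%. Over all promoters, 1.56% were B6-high and 1.32% CAST-high, and the interval lay above 50% in 12.6% and below it in 7.04%. Prdm9 itself had 495 B6 and 472 CAST counts, 51.2% (48.0% to 54.4%), and Ythdc2, which drives entry into meiosis, 322 and 292, 52.4% (48.4% to 56.5%). Hells had 363 B6 and 368 CAST counts, 49.7%. A second promoter region of Zcwpw1, a reader of the marks PRDM9 leaves, was CAST-high with 12 B6 and 89 CAST counts, 11.9% (6.29% to 19.8%), while its main one had 186 and 175, 51.5%. The 10 of 11 spermatogonial promoters had a median of 50.9%, led in counts by Dmrt1 (242 B6 and 294 CAST, 45.2%) and Etv5 (186 and 192, 49.2%). The 7 of 12 pachytene and spermatid promoters had a median of 53.7%, with Mybl1 at 53.7% and Crem at 51.5% the deepest. The 7 Sertoli promoters had a median of 52.0% (Wt1 49.7%, Gata4 52.0%), the 4 of 7 peritubular, stromal and endothelial ones 48.9% (Pdgfra 46.8%, Acta2 41.6%), the Leydig gene Nr5a1 50.1% and the 12 of 14 housekeeping ones 50% (Tbp 48.5%, Rpl13a 54.7%). In these 8 lists, the second region of Zcwpw1 was the only promoter region past the 4-fold ratio.

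In somatic tissues, imprinted genes are transcribed from the maternal or the paternal allele alone or mainly. The parent named for a gene below refers to those tissues. What germ cells and somatic cells each gave to these shares was not tested. CAST alleles were also the paternal ones in every F1 library, so strain and parent of origin cannot be told apart. Of the 30 genes, 25 had a member promoter (Cdkn1c, Ndn, Nnat, Dlk1 and Rtl1 had none), with a median B6 share of 40.5% (range 19.3% to 73.3%); the interval left out 50% in 16, against the 12.6% above and 7.04% below 50% over all promoters. Peg10 and Sgce, which are expressed from the paternal allele and share 1 region, were CAST-high with 22 B6 and 92 CAST counts, 19.3% (12.5% to 27.8%). Among other genes expressed from the paternal allele, Peg3, a zinc finger gene, had 180 B6 and 323 CAST counts, 35.8% (31.6% to 40.2%). Snrpn, of the Prader-Willi locus, had 56 and 120, 31.8% (25% to 39.3%). Peg13, a noncoding RNA gene, had 169 and 394, 30.0% (26.3% to 34.0%). Kcnq1ot1 (31.9%), Plagl1 (24.1%), Zrsr1 (26.7%), Zdbf2 (28.2%), Airn (36.7%), Mcts2 (40.5%) and Magel2 (25.9%) were also below 50% with their intervals. Igf2, with 12 and 9 counts, was not (57.1%, 34.0% to 78.2%). The Inpp5f promoter region (41.8%) was below 50% with its interval as well, but which promoter of that gene is imprinted was not examined. Mest (42.7%) and the region shared by Gnas and Nespas (44.8%) had intervals that held 50%.

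Of the genes expressed from the maternal allele, Igf2r and H19 had intervals above 50%. Igf2r, the receptor that clears insulin-like growth factor 2, had 122 B6 and 57 CAST counts, 68.2% (60.8% to 74.9%). H19, a noncoding RNA gene, had 22 and 8, 73.3% (54.1% to 87.7%). Meg3 (55.1%), Phlda2 (54.2%), Zim1 (53.2%) and H13 (51.5%) had intervals that held 50%. Grb10, an adaptor of growth factor receptors, had regions on both sides: its deepest had 8 B6 and 20 CAST counts, 28.6% (13.2% to 48.7%), and another 22 and 3, 88.0% (68.8% to 97.5%). Impact, expressed from the paternal allele, had a balanced promoter region with 236 and 232 counts, 50.4%, and a CAST-high one with 72 and 296, 19.6% (15.6% to 24%).

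In ATAC the median share over the 25 imprinted genes was 42.8%, and 7 passed the allele test, against 5.30% higher on B6 and 3.80% on CAST over all promoters. Peg13 was farther from balance in ATAC (edgeR adjusted p = 3.6e-08). It had 149 B6 and 380 CAST counts in library 1 and 125 and 383 in library 2. Mest (39.9%), the balanced region of Impact (58.9%), H13 (55.3%), Zim1 (53.9%) and Phlda2 (55.0%) were farther from balance as well. The CAST-high region of Impact, which is not among the 25, had an ATAC share of 34.6%. There ATAC was higher on CAST, as H3K9ac was (edgeR adjusted p = 4.19e-05). Peg3 had 1179 B6 and 1927 CAST ATAC counts in library 1 and 833 and 1664 in library 2 (edgeR adjusted p = 3.58e-08), close to its H3K9ac share. Peg10 and Sgce had 96 and 127 in library 1 and 78 and 110 in library 2, 43.1% and 41.5%, which is nearer to balance than their H3K9ac interval of 12.5% to 27.8% and did not pass (adjusted p = 0.128).

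**Figure D3:**
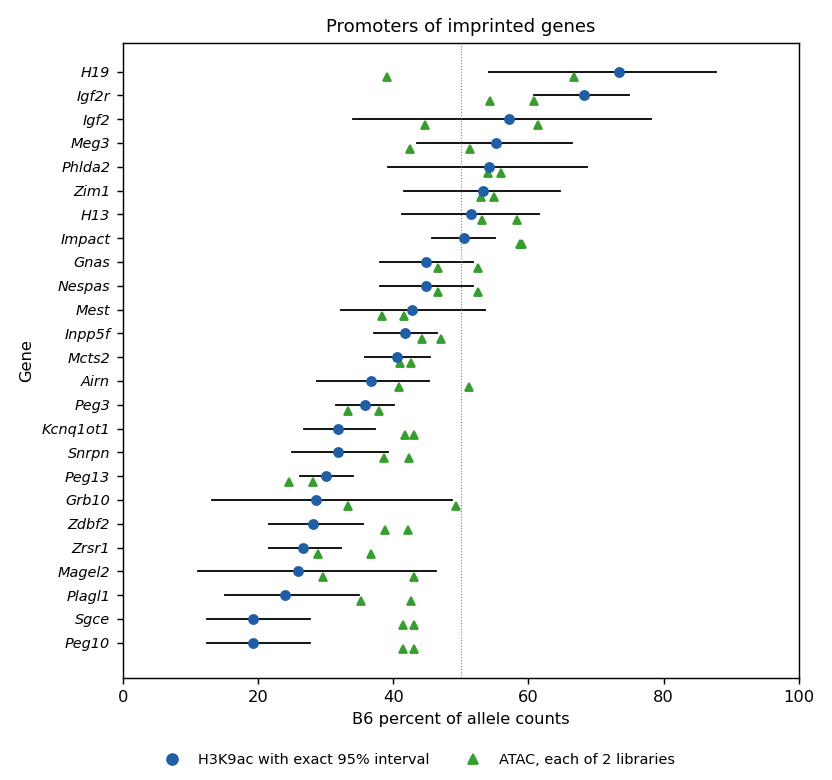
B6 percent of allele counts (x axis) at the promoters of the 25 imprinted genes (y axis), ordered by H3K9ac share. Circles are H3K9ac with exact 95% intervals and triangles the 2 ATAC libraries; most genes lie below 50%, from H19 at 73.3% to Peg10 and Sgce at 19.3%.

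Among other distal regions, 2 of the leading 6 were also very deep in ATAC. A 1064 bp region nearest Lama2, a laminin chain gene (chr10:27639164-27640228, intergenic), had 934 B6 and 38 CAST H3K9ac counts, 96.1% (94.7% to 97.2%). Its ATAC counts were far higher, at 7132 B6 and 231 CAST in library 1 and 6998 and 273 in library 2. In an intron of Clstn2, a calsyntenin gene (chr9:97593572-97594531), H3K9ac had 8 B6 and 525 CAST counts, 1.5% (0.65% to 2.94%), and ATAC 122 and 2760 in library 1 and 111 and 2680 in library 2. The region nearest Gm8797 (chr3:5860009-5861013) had 137 and 1 H3K9ac counts, 99.3% (96.0% to 100%), but only 5 B6 and 1 CAST and 12 and 6 in the ATAC libraries. The intronic Wdfy3 region (chr5:102022973-102024364), in a gene of selective autophagy, had 80 B6 and 0 CAST counts, 100% (95.5% to 100%), and ATAC counts of 70 B6 and 34 CAST in library 1 and 83 and 24 in library 2. The region nearest Tmem132c (chr5:126933642-126937025) had 2 B6 and 236 CAST H3K9ac counts, 0.84% (0.10% to 3.0%), and ATAC counts of 80 and 239 in library 1 and 58 and 189 in library 2.

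In KI and B6 mice, H3K9ac at 3 of these 6 regions was higher in KI. Lama2 had 4.53 and 4.18 CPM in KI and 0.0323, 0.378 and 0.0326 CPM in B6, and Clstn2 7.82 and 6.96 CPM in KI and 0.0645, 0.63 and 0.196 CPM in B6. Siah3, whose F1 H3K9ac counts were 11 B6 and 735 CAST, had 7.96 and 9.02 CPM in KI and 0, 0.63 and 0.131 CPM in B6. The log2 fold changes were 5.13, 4.80 and 5.32 (edgeR adjusted p = 0.0268, 0.0168 and 0.0323), and none of the 3 overlapped a region of the KI and B6 ATAC table. Wdfy3 had 6.62 and 9.75 CPM in KI and 6.58, 5.86 and 5.02 CPM in B6, and did not pass (adjusted p = 0.288); Gm8797 and Tmem132c were in neither table.

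CAST-high calls were more frequent among other distal regions absent from tables made without CAST chromosomes. Of the 25356 other distal members, 3661 overlapped no region of the KI and B6 tables, and 30.6% of them were CAST-high and 1.15% B6-high. Such regions could become members mainly through the CAST allele, so this split too is not independent of the share. Of the 21695 that overlapped one, 1.17% were CAST-high and 3.23% B6-high. Over all members, 96.7% of the B6-high and 29% of the CAST-high regions overlapped a region of the H3K9ac table, and 77.8% and 12.1% one of the ATAC table.

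Over all members, those with high B6 shares in the F1 had more H3K9ac in KI than in B6 mice, and this differed by class. Over the 2131 B6-high members in the H3K9ac table, the median KI over B6 log2 fold change was 3.76, and 1418 passed the test as higher in KI and 0 as lower. Over the 641 CAST-high members there, the median was -0.82, with 53 higher and 6 lower. Over all 45378 members in that table, 7328 were higher and 98 lower. By class, the medians of B6-high members were 4.50 at KI-opened sites, -1.94 at DMC1 hotspots, 2.53 at promoters and 0.25 at other distal regions. Those of CAST-high members were 3.66 at KI-opened sites (7 in the table), -1.54 at DMC1 hotspots, -0.57 at promoters and 0.04 at other distal regions. Within KI-opened sites, and within DMC1 hotspots, the medians of both directions had the same sign. KI-opened sites were chosen as higher in KI by ATAC, so the sign there is not independent of the class rule. By bins of 10 percentage points of share, the medians were -1.08, -0.72, -0.12, -0.06, -0.03, -0.02, 0.01, 0.27, 3.48 and 4.23, so the step lay at 80%. Without B6 replicate 2, the medians were 4.38 at B6-high and -0.18 at CAST-high members.

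**Figure D4:**
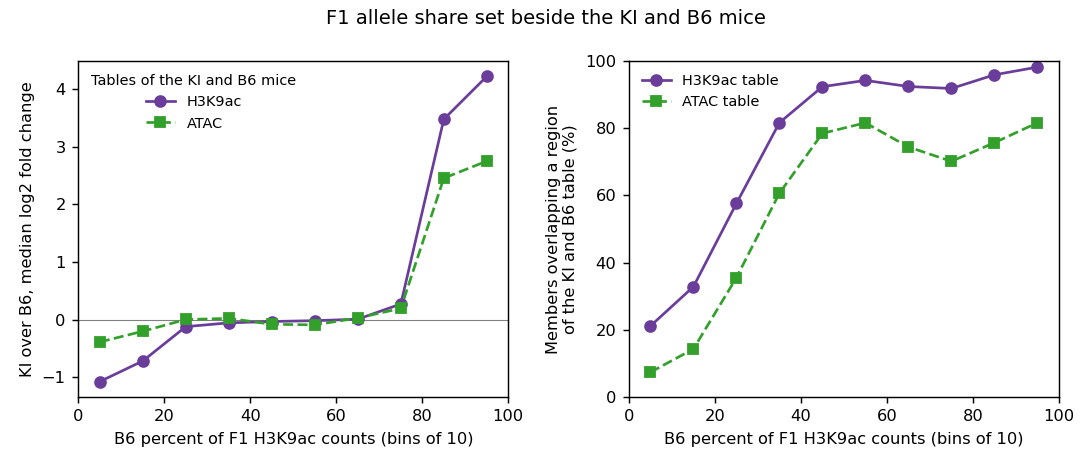
Left, median KI over B6 log2 fold change of H3K9ac (circles) and ATAC (squares) in members binned by F1 H3K9ac B6 share (x axis, percent); right, percent of members in each bin that overlap a region of the H3K9ac or ATAC table of KI and B6 mice. H3K9ac medians lie between -0.12 and 0.27 from 20% to 80% and reach 4.23 above 90%; overlap falls to 21.1% and 7.32% below 10%.

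B6 chromatin states placed the calls as well. State numbers are those of the deposited segmentation, with no names given. State 7 held 2105 members with a median share of 38.1%; 3.56% were B6-high and 27% CAST-high. State 11 held 5027 members, and was the most frequent state of both kinds of call, with 36.5% of all B6-high and 36.1% of all CAST-high members. In it 16.0% were B6-high and 15.9% CAST-high. State 1, the largest with 21659 members, had 1.39% and 0.175%.

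H3K9ac and ATAC lay on the same side of 50% in 65.3% of the 48529 members with neither share at 50%, and in 60.3% of promoters. Across 51013 members with 20 or more ATAC counts, the log2 allele ratios (1 added to each count) correlated with r = 0.674 (Pearson) and rho = 0.497 (Spearman), given as a description since regions are not replicates and share the strain pair and its variants. Over 48471 members H3K9ac had r = 0.647 with ATAC library 1 and 0.613 with library 2, and the 2 ATAC libraries had r = 0.675 with each other. By class, r was 0.778 at KI-opened sites, 0.746 at DMC1 hotspots, 0.566 at promoters and 0.603 at other distal regions.

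**Figure D5:**
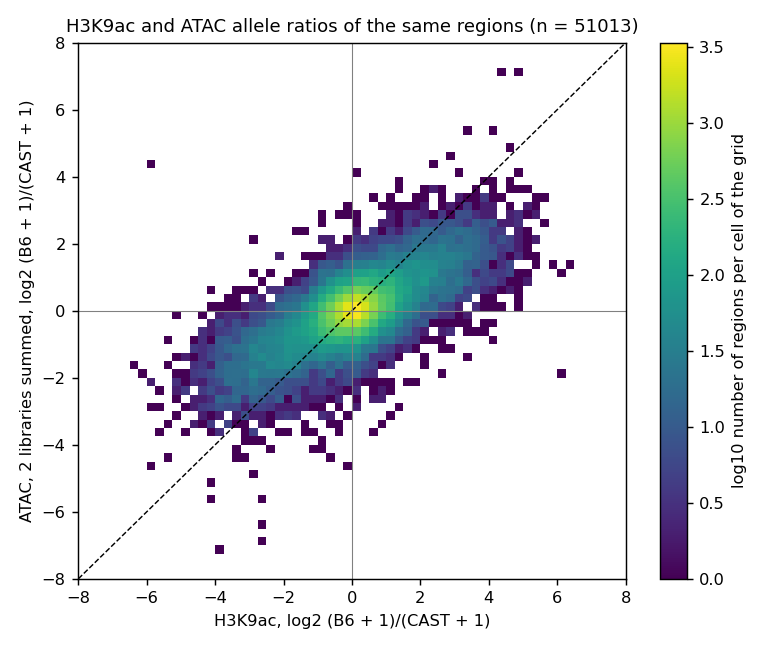
H3K9ac log2 (B6 + 1)/(CAST + 1) of each member (x axis) against the same ratio of the summed ATAC counts (y axis); colour gives the log10 number of regions per grid cell, the dashed line equality. The cloud of 51013 regions runs from lower left to upper right and is flatter than equality.

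The H3K9ac ratios were the wider of the pair, with an SD over members of 1.03 on the log2 scale against 0.694 for ATAC. H3K9ac had fewer counts in members, 6174057 against 9003985 and 8057977 in the ATAC libraries. It also had a lower CAST percent on X, 2.16% against 6.39% and 6.72%. What depth and allele assignment contribute to the difference was not tested. B6-high members had a median ATAC share of 72.2%, above 50% in 2099 of 2195, and CAST-high members one of 28%, below 50% in 2108 of 2208. ATAC was nearer to 50% than H3K9ac in 2116 of those B6-high and 2122 of those CAST-high regions. These members were chosen on H3K9ac, so the reverse was counted as well. In the 614 members that were 4-fold B6-high in ATAC, the median shares were 88.5% in H3K9ac and 83.7% in ATAC; in the 660 that were 4-fold CAST-high in ATAC, they were 10.9% and 15.5%.

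The ATAC allele test did not use the F1 H3K9ac counts. It put KI-opened sites highest toward B6 and DMC1 hotspots highest toward CAST, as H3K9ac did. Toward B6 the other 3 classes came in another order. Both readouts used the same classes, and the KI-opened class was found in mice without CAST chromosomes. What that choice contributes to the lean in either readout was not tested. Over all 69255 autosomal regions tested, 6.27% were higher on B6 and 5.46% on CAST (edgeR adjusted p under 0.05), in number 4340 and 3780, against 1638 and 1417 by DESeq2. Of 4287 KI-opened sites, 1443 (33.7%) were higher on B6 and 112 (2.61%) on CAST. Of 2510 DMC1 hotspots, 118 (4.70%) were higher on B6 and 626 (24.9%) on CAST. Of 18997 promoters, 1006 (5.30%) and 721 (3.80%) were, and of 25219 other distal regions 1157 (4.59%) and 1731 (6.86%). Among H3K9ac B6-high members 1386 of 2195 passed toward B6 and 8 toward CAST; among CAST-high members 8 of 2208 passed toward B6 and 1362 toward CAST.

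Some regions went opposite ways. In 954 members (1.87%) the H3K9ac share was on the B6 side and the ATAC share on the CAST side of 50%. In 689 (1.35%) it was the reverse. The intervals of the 2 readouts did not overlap, though an interval could itself hold 50%. In the region nearest Siah3 (chr14:75413365-75414622) H3K9ac had 11 B6 and 735 CAST counts, 1.47% (0.74% to 2.62%), while ATAC had 120 B6 and 2 CAST counts in library 1 and 115 and 9 in library 2, 98.4% and 92.7%. In the region nearest Gm21060, H3K9ac had 66 B6 and 0 CAST counts and ATAC 10 and 52 in library 1 and 16 and 41 in library 2. The intronic Pla2r1 region had 4 B6 and 37 CAST H3K9ac counts against ATAC counts of 53 and 15 and of 49 and 6. Siah3, Gm21060 and Pla2r1 passed the ATAC allele test against their H3K9ac direction (edgeR adjusted p = 6.5e-08, 0.0019 and 0.000286), and Smim23, a KI-opened site with 19 B6 and 1 CAST H3K9ac counts, did too (0.00864). By DESeq2 neither Gm21060 (adjusted p = 0.0591) nor Smim23 (0.206) passed.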

How the data were processed

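H3K9ac ChIP-seq and ATAC-seq libraries of mouse male germ cells were analysed from the deposited tables. The F1 table holds expected counts per allele, region and library, as the authors deposited them; its title names EMASE, which estimates allele counts, and all values were whole. The KI and B6 tables hold raw counts per region, as the authors deposited them. The submitters' processing notes name CASAVA, BWA 0.7.15, Bowtie 0.12.9, MACS 1.4.2 and build mm10; which step used which is not given in the sources used here. Per the labels, H3K9ac chromatin was cut with MNase. Allele counts need reads over strain variants, whose number per region is unknown. In all, 8 columns matched to no sample were not used.

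Here, shares were given exact 95% intervals (scipy 1.17.1). The F1 ATAC allele test was edgeR 4.0.16's quasi-likelihood test (R 4.3.3) with the library as a block and library totals as sizes, in regions with 20 or more counts; both alleles come from the same library, which is where the pairing comes from. KI against B6 tests used the same edgeR test with TMM scaling and filterByExpr; p-values were Benjamini-Hochberg adjusted, threshold 0.05. Overlap was 1 bp or more. The edgeR steps were tested on simulated data. Named regions were, per class and direction, the 3 whose interval lay farthest from 50%, and the 4 per direction with the largest H3K9ac to ATAC difference among opposite regions; listed genes were named where past 4-fold, otherwise the deepest, and others named for comparison were chosen after their values were seen. Printed windows came from RefSeq's mm10 reference. Alternatives were other minimums, ratios, site definitions and scalings, DESeq2 1.42.0, and leaving out libraries. Members and lists were chosen with earlier results of these data known.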

Additional observations from a re-analysis of the deposited data

Results flagged for a closer look

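In 954 and 689 members the H3K9ac and ATAC shares lay on opposite sides of 50% with intervals that did not overlap. The 4 with the largest difference in each direction are given here. Both ATAC libraries lay opposite to H3K9ac in each, and the difference was not tested itself. H3K9ac leaned to B6 and ATAC to CAST in 4 of them. Nearest Gm21060 the B6 share was 100% in H3K9ac and 21.9% in summed ATAC counts, and in an intron of Dlg2 96.88% and 36.7%. Nearest Smim23, a KI-opened site, it was 95% in H3K9ac and 26.4% in ATAC, and in an Agps intron, a DMC1 hotspot, 90.0% and 19.2%. H3K9ac leaned to CAST and ATAC to B6 in the other 4. The H3K9ac share was 1.47% nearest Siah3, 9.76% in Pla2r1, 2.70% in Cttnbp2nl and 2.94% at the Soga1 promoter. The ATAC shares there were 95.5%, 82.9%, 60.6% and 52.4%. The Soga1 ATAC interval, 43.3% to 61.35%, held 50%. The ATAC side passed the allele test at Gm21060, Smim23, Siah3 and Pla2r1, and not at Dlg2 (edgeR adjusted p = 0.0667), Agps (0.0983), Cttnbp2nl (0.338) or Soga1 (0.864).

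Chromosome X, outside the autosomal comparison, held some CAST counts. They made up 2.163% of the H3K9ac counts (exact 95% interval 2.07% to 2.26%), and 6.385% and 6.723% in the ATAC libraries. Of 916 X regions with 20 or more H3K9ac counts, 900 were B6-high and 16 were not.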

How the results depend on the processing

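With 1 H3K9ac library no spread between animals is known. B6-high and CAST-high percents kept their order between KI-opened sites and DMC1 hotspots under every limit and site definition tried. At a 2-fold ratio they were 11.4% and 9.64% of all members, 40.8% and 1.93% of KI-opened sites, 9.24% and 36.8% of DMC1 hotspots, 5.4% and 3.92% of promoters, and 11.1% and 12.5% of other distal regions. At an 8-fold ratio they were 1.82% and 1.9%, 12.4% and 0.0699%, 1.23% and 10.7%, 0.608% and 0.54%, and 0.994% and 2.37% in the same order of classes. By intervals that leave out 50% they were 14.9% and 11%, 47.2% and 3.61%, 9.79% and 37.2%, 12.6% and 7.04%, and 11.6% and 12.7%. A minimum of 50 counts gave promoters 1.02% and 0.879% and other distal regions 1.32% B6-high. KI-opened sites taken from KI against B6 H3K9ac had 0.756% CAST-high. Taken from HELLS peaks, they had 38.4% B6-high and 0.0894% CAST-high, with 4.88% B6-high among other distal regions. A larger required overlap, of 50% of the region, left 0% CAST-high KI-opened sites and 4.98% B6-high other distal regions. In regions of the B6 and KI tables alone, chosen after seeing the data, CAST-high fell to 1.5% of members and 15.5% of DMC1 hotspots. It fell to 0.521% of promoters and 1.17% of other distal regions, and stayed at 0.186% of KI-opened sites. The cause was not tested.

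F1 ATAC allele calls higher on B6 and on CAST numbered 4607 and 4056 with no replicate block, against 4340 and 3780 with it. DESeq2 gave 1638 and 1417, from 45086 regions with an adjusted p. The Pearson r of H3K9ac and ATAC was 0.6087 and 0.6411 without 1 ATAC library, and 0.7699 at a minimum of 50 counts in both. Leaving out 1 library moved the median KI over B6 H3K9ac log2 fold change between 3.471 and 4.375 at B6-high members and between -1.101 and -0.1771 at CAST-high ones. KI-opened sites numbered 4096 to 5319 without 1 ATAC library, with 20.9% to 26.2% B6-high. The numbers of ATAC regions lower in KI were 8439 and 7789 without B6 replicates 1 and 2 and 1060 and 1231 without KI replicates 1 and 2, against 1856. Of the named regions' ATAC tests under alternatives, 115 kept their call, 5 lost it (Gabrg1, Cdkl2, Gm21060 and Smim23), 2 gained it (Dlg2) and 0 reversed.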
